A study of Arabidopsis thaliana with 18 samples.

Results

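The comparison described here was that of induced seedlings at 24 h with induced seedlings at 12 h, and it asked which transcripts still rose or fell late after induction of DUO1 and which had levelled off. Arrays were chosen by their titles, the 3 labelled as induced at 24 h and the 3 labelled as induced at 12 h, 6 of the 18 arrays of the series. The series crosses induction (given or not) with 3 times, 6 h, 12 h and 24 h, and holds 3 Affymetrix ATH1 arrays in each of the 6 groups. Every group, the controls included, consisted of whole Arabidopsis thaliana plants of background Col-0 at developmental stage 1.04 that carried DUO1 in the inducible vector pMDC7, listed in the labels as a T-DNA line. About 200 seeds were sown on each plate, with hygromycin and no carbon source, so an RNA sample pools many seedlings, and plants grew for 12 days at constant light before treatment began. The vector pMDC7 is built to express the inserted gene when oestradiol is given. The labels name neither the inducer nor its dose, nor what the plants without induction received. Plants lacking the construct were not given the inducer in any group, and what DUO1 did and what the inducer did cannot be told apart.

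Male germ cells make DUO1, a transcription factor with a MYB domain. In developing pollen it is needed for the division of the generative cell into sperm cells, and it switches on a set of germline genes, among them the histone H3 gene MGH3. Seedlings do not normally use this programme.

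On the 6 arrays the median signal lay between 38.5 and 39.5 in MAS5 units, and 75.4% to 80.6% of probe sets were above the background level of the array. That level, 4.81 to 7.05, is the highest signal among 27 controls for transcripts not added to the sample. Whole plants were represented: the root gene PYK10, a beta-glucosidase of endoplasmic reticulum bodies, had signals of 3433, 3948 and 4092 at 12 h and 3360, 3270 and 3143 at 24 h. RCA, the Rubisco activase of leaves, had signals of 4841, 5131 and 4944 and of 4200, 6596 and 5097. The 3' over 5' signal ratio of the actin control was 3.14 to 3.66 at 12 h and 2.45 to 2.98 at 24 h in induced plants, with no overlap. Without induction the ratios were 2.89 to 3.39 and 2.17 to 3.46. The hybridisation controls had mean log2 signals of 8.33 to 8.44 at 12 h and 8.25 to 9.2 at 24 h. The part of these differences in the changes below was not tested beyond a fit with each as a covariate.

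Between 12 h and 24 h of induction, 781 of the 22746 tested probe sets changed (3.43%), of which 340 rose (1.49%) and 441 fell (1.94%), by limma with an adjusted p under 0.05. Most of these changes were small. The median size was 0.68 on the log2 scale, 588 of the 781 (75.3%) were under 2-fold, and 80 rises (0.352%) and 113 falls (0.497%) reached 2-fold. The 3 arrays of one time lay wholly above the 3 of the other for 768 of the 781, and for 20.3% of all tested probe sets. A single gene was named for 341 of the 781. In 26 of the 781 not every array of the brighter group was above background, and in 4 all 6 arrays were at background. In whole plants, fewer cells of a type and less RNA per cell cannot be told apart. The count of calls was 402 and 495 without induced 12 h replicates 2 and 3, 467 and 387 without induced 24 h replicates 2 and 3, and 353 with the actin ratio as a covariate.

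**Figure D1:**
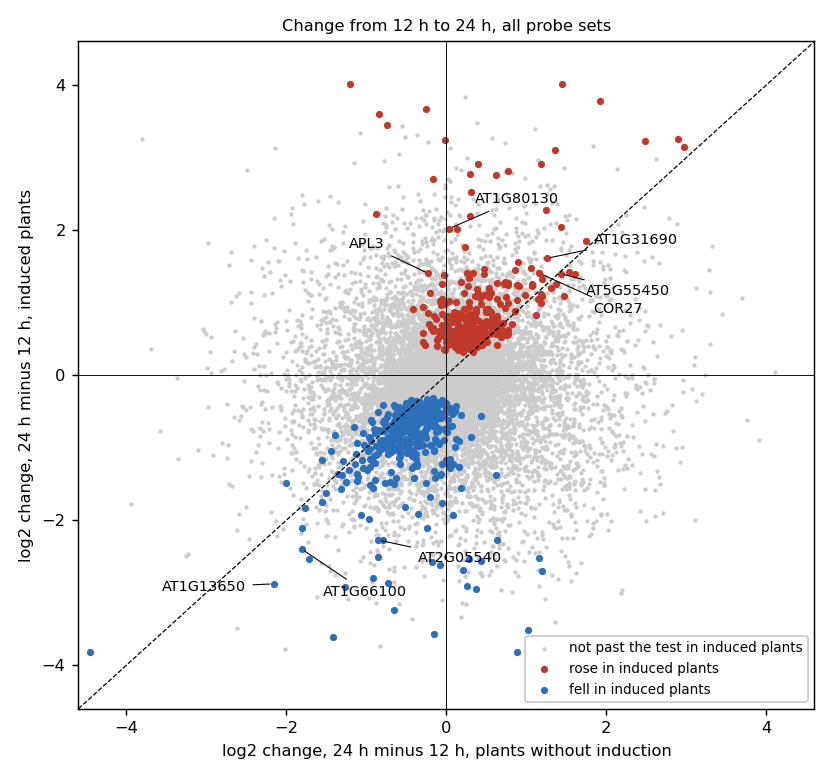
Log2 change in signal from 12 h to 24 h for the 22746 probe sets, in plants without induction (x axis) and induced plants (y axis), with a dashed line of equal change. The 340 rises and 441 falls of induced plants mostly lie on the same side of 0 without induction (298 and 406), and AT1G80130 and APL3 sit near 0 on the x axis.

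Among the 12 largest rises with 1 gene, AT1G80130, APL3, AT2G30670 and AT1G76620 had mean induced signals more than 2-fold above those without induction at 24 h. AT1G80130, which encodes a tetratricopeptide repeat protein, had signals of 152, 73.4 and 88.4 at 12 h and of 287, 434 and 528 at 24 h. Each 24 h array was thus above each 12 h array (log2 change 2.02 ± 0.40 SE, adjusted p = 0.00568). Without induction its mean signal was 98.4 at 12 h and 97.8 at 24 h. APL3 encodes a large subunit of ADP-glucose pyrophosphorylase, the enzyme that makes the glucosyl donor for starch. Its signals were 127, 85.7 and 97.8 at 12 h and 214, 252 and 363 at 24 h, again with no overlap (log2 change 1.40 ± 0.31 SE, adjusted p = 0.0123). Plants without induction had a mean of 77.3 at 12 h and 65.8 at 24 h.

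AT2G30670, a gene of the tropinone reductase family, had signals of 12.3, 11.7 and 15.1 at 12 h and 36.1, 32.1 and 34.5 at 24 h (log2 change 1.41 ± 0.28 SE, adjusted p = 0.00674). The 24 h arrays lay close together and more than 2-fold above the highest 12 h array. Without induction the means were 12.5 and 14.5. AT1G76620 rose from 17.6 ± 3.82 to 43.9 ± 3.8 (SD, n = 3), while plants without induction had 16.1 and 19.9 (log2 change 1.34 ± 0.27 SE, adjusted p = 0.00632 in induced plants). At 6 h its induced mean had been 40.7, so the 12 h arrays were the low point. Tested directly, the change in induced plants exceeded that without induction by 1.99 for AT1G80130, 1.63 for APL3, 1.15 for AT2G30670 and 1.06 for AT1G76620 on the log2 scale. The unadjusted limma p-values were 0.00226, 0.00133, 0.0101 and 0.0115, and 0 of the 4 passed after adjustment (adjusted p = 0.461, 0.441, 0.577 and 0.586). The 4 were picked by their late rise and their gap at 24 h, which both enter this difference. Their unadjusted p-values are therefore descriptions. With the actin ratio as a covariate the late rises of AT1G80130, APL3 and AT2G30670 had adjusted p of 0.0943, 0.181 and 0.0555. APL3 also lost its call without induced 12 h replicate 2 and without induced 24 h replicate 3 (adjusted p = 0.0719 and 0.091).

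A second set of late rises was of like size without induction. AT5G55450, of the lipid transfer protein family, had signals of 104, 66.1 and 77.5 at 12 h and 274, 159.6 and 222 at 24 h (log2 change 1.40 ± 0.17 SE, adjusted p = 5.96e-05). Plants without induction rose from 75.7 to 204 (adjusted p = 7.11e-05), so both sets of plants ended at similar levels. AT1G07050, a CCT motif gene, rose from 34.5 ± 9.902 to 90.3 ± 2.13 in induced plants (adjusted p = 0.00536) and from 35.5 to 97.8 without induction (adjusted p = 0.00561). COR27, a cold-regulated gene that also acts in the circadian clock, rose from 27.4 ± 5.13 to 71.98 ± 9.78 in induced plants (log2 change 1.40 ± 0.26 SE, adjusted p = 0.00352). Its rise without induction was from 22.7 to 50.5 (adjusted p = 0.025). AT1G31690, a copper amine oxidase gene, had signals of 17.3, 24.8 and 19.4 at 12 h and 62.97, 62.6 and 59.9 at 24 h (log2 change 1.61 ± 0.22 SE, adjusted p = 0.000202). Its induced mean at 6 h was 53.3, so the 24 h arrays returned to near the 6 h level. Plants without induction rose from 29.6 to 70.4 (adjusted p = 0.00369).

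AT5G59670, a leucine-rich repeat receptor kinase gene, had signals of 10.1, 10.9 and 8.27 at 12 h and 51.2, 38.9 and 52.7 at 24 h (log2 change 2.28 ± 0.48 SE, adjusted p = 0.00875). The groups were far apart, although the adjusted p was 0.0503 without induced 24 h replicate 3. Without induction the mean went from 10.9 to 25.98 (adjusted p = 0.287). The other 3 of the 12 largest rises started at or near background. AT5G40590, whose product has a C1 domain, had signals of 1.32, 3.22 and 4.64 at 12 h and 12.6, 15.4 and 27.8 at 24 h, a rise of at least 3.16-fold over background (adjusted p = 0.000915). Its mean was 12.4 at 6 h of induction and 15.4 and 14.2 without induction, so the 12 h induced arrays were the low ones. AT3G07250 rose at least 1.602-fold to 9.296, and AT1G54020, a GDSL lipase gene, rose from 3.98 to 13.9 with 1 of 3 arrays at 12 h above background (adjusted p = 0.0274 and 0.0386). Both calls were lost in some alternatives, AT3G07250 in 7 and AT1G54020 in 8 of 17.

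Among probe sets with no single gene in the annotation used here, 251677_at had signals of 6.54, 15.5 and 8.87 at 12 h and 62.1, 77.9 and 152 at 24 h (log2 change 3.23 ± 0.37 SE, adjusted p = 4.57e-05). It also rose without induction, from 26.9 to 151 (adjusted p = 0.000958). The probe set 264400_at had 55.2, 22.4 and 16.2 and then 189.5, 101 and 369, wide apart within each time but not overlapping (adjusted p = 0.00661). A further probe set, 253153_at, went from background on all 3 arrays to 26.5, 16.9 and 31.4, at least 4.36-fold higher (adjusted p = 0.0241). Its means without induction were 3.17 and 1.22, also at background. The probe set 257065_at had 15.5, 0.667 and 0.934 and then 27.6, 24.2 and 29.7, with 1 of the 12 h arrays above background, and was at background without induction (adjusted p = 0.0316). Calls were lost without induced 24 h replicate 3 for 264400_at, 253153_at and 257065_at (adjusted p = 0.0605, 0.107 and 0.118). In all, 253153_at lost its call in 6 and 257065_at in 8 of 17 alternatives (adjusted p up to 0.206 and 0.191), and 264400_at in 3 of 18.

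**Figure D2:**
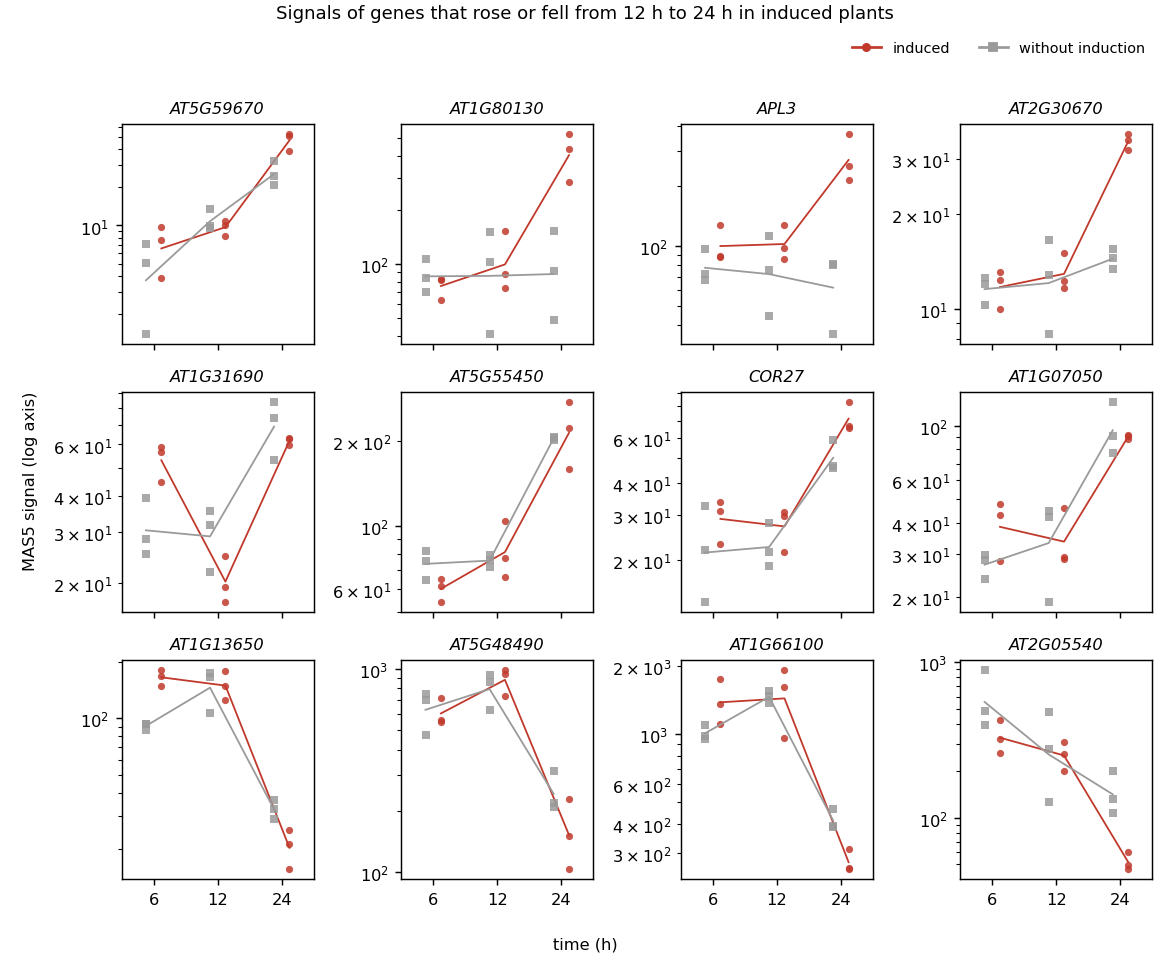
MAS5 signals on log axes at 6 h, 12 h and 24 h for 12 genes that rose or fell from 12 h to 24 h in induced plants; points are single arrays (red circles induced, grey squares without induction) and lines join geometric means of 3 arrays. AT1G80130, APL3 and AT2G30670 separate from the plants without induction at 24 h, while AT5G55450, COR27, AT1G07050 and the 4 genes of the bottom row move the same way with and without induction.

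Of the 12 largest falls with 1 gene, AT1G66100, AT5G48490 and AT1G13650 fell both with and without induction. AT1G66100, a thionin gene whose family encodes small antimicrobial peptides, had signals of 955, 1922 and 1606 at 12 h and 256, 253 and 311 at 24 h (log2 change -2.40 ± 0.19 SE, adjusted p = 5.77e-07). No 24 h array came near a 12 h array. Without induction it fell from 1458 to 416 (adjusted p = 3.07e-05). AT5G48490, which encodes a lipid transfer protein similar to DIR1 of systemic defence signalling, had 733, 991 and 944 and then 227, 149.7 and 103 (log2 change -2.54 ± 0.23 SE, adjusted p = 5.66e-06). The fall without induction was from 805 to 246 (adjusted p = 0.00043). AT1G13650 had the smallest adjusted p of the named genes, with signals of 149, 178 and 126 at 12 h and 25.3, 21.3 and 15.6 at 24 h (log2 change -2.88 ± 0.19 SE, adjusted p = 3.88e-08). Plants without induction went from 149 to 32.7 (adjusted p = 3.2e-06). For AT1G66100, AT5G48490 and AT1G13650 the log2 change with induction minus that without was -0.59, -0.83 and -0.72, with unadjusted limma p of 0.0395, 0.0221 and 0.013 and adjusted p of 0.702, 0.655 and 0.609.

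AT2G38240, a jasmonate oxidase gene whose product inactivates the hormone, fell from 63.1 ± 15.7 to 17.5 ± 3.22 with induction (log2 change -1.83 ± 0.29 SE, adjusted p = 0.000744) and from 77.3 to 22.8 without it (adjusted p = 0.00189). At 6 h its induced mean had been 158, so its mean was lower at each later time. AT2G05540, a glycine-rich protein gene, had signals of 199.9, 307 and 258 at 12 h and 46.5, 60.5 and 49.9 at 24 h (log2 change -2.27 ± 0.35 SE, adjusted p = 0.000707). Without induction the means were 293 and 146, which did not pass (adjusted p = 0.345), and the difference between the falls had an unadjusted p of 0.0101 (adjusted p = 0.577). AT3G49160, of the pyruvate kinase family, fell from 25.2 ± 6.71 to 6.49 ± 0.841 (adjusted p = 0.000578), and 1 array at 24 h was at background. The brightest unnamed fall among the largest, 258239_at, had signals of 2288, 2995 and 2658 and then 705, 708 and 463 (log2 change -2.10 ± 0.21 SE, adjusted p = 1e-05), and went from 2232 to 623 without induction (adjusted p = 7.11e-05).

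The other named falls ended at or near background. AT5G26200, a mitochondrial carrier gene, had signals of 20.04, 23.01 and 24.97 at 12 h and 1.81, 10.4 and 5.35 at 24 h, of which 1 was above background (log2 change -2.28 ± 0.45 SE, adjusted p = 0.00521). The call was lost when only the 6 arrays were fitted (adjusted p = 0.0593). AT1G15830, CYP51G2, AT2G14060 and AT2G19010 had mean 12 h signals of 12.5, 11.8, 10.2 and 8.11 and were at background on all 3 arrays at 24 h. Their falls were at least 1.82-fold, 1.81-fold, 1.57-fold and 1.25-fold. CYP51G2 is annotated by RefSeq as a transcribed pseudogene of the sterol demethylase family, AT2G14060 encodes a methyltransferase of the SABATH family and AT2G19010 a GDSL lipase. IAA33, an atypical member of the Aux/IAA auxin repressor family, went from 13.4, 10.9 and 10.03 to 6.79, 1.53 and 0.672, with 1 of the 24 h arrays above background (adjusted p = 0.0273). The last 5 genes lost their call in 6 to 11 of the 17 alternatives each.

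Taken over all called probe sets, the direction was mostly shared with plants not induced. Those plants had 329 late changes (1.45%), 110 rises (0.484%) and 219 falls (0.963%), on arrays that the induced comparison does not use. Of the 340 induced rises, 298 (87.6%) had a positive log2 change without induction and 60 (17.6%) were called there. Of the 441 falls, 406 (92.1%) had a negative change without induction and 126 (28.6%) were called. None was called in the opposite direction. In turn, 54.5% of the 110 rises and 57.5% of the 219 falls without induction were called in induced plants. Over all tested probe sets 57.6% had the same sign in both intervals, and the log2 changes had a Pearson's r of 0.085 and a Spearman's rho of 0.168 across probe sets. Over the brighter 50% (11373 probe sets) r was 0.533. These are descriptions across probe sets of the same arrays, which are not independent replicates.

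The changes were larger with induction among probe sets called there, which were chosen for being large: the median log2 change of the rises was 0.63 with and 0.29 without induction, and that of the falls -0.71 and -0.39. In reverse, rises called without induction had medians of 0.69 there and 0.56 in induced plants, and falls -0.69 and -0.56. The difference between the induced and the not induced change was tested for every probe set, and limma called 0 (1591 had an unadjusted p under 0.05). The count was 2 with a filter on mean signal, 8 with signals raised to background, and 12 with array weights. Leaving out 1 array gave 18 (induced 24 h replicate 1), 3 (not induced 12 h replicate 3) and 1 (not induced 24 h replicate 2).

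The probe sets nearest to passing were named after their values were seen. AT4G22212, a defensin-like gene, had induced signals of 236, 198 and 199.9 at 12 h and 92.1, 75.1 and 70.5 at 24 h (log2 change -1.42 ± 0.17 SE, adjusted p = 6.34e-05). Plants without induction had 243 and 211, and the difference was -1.28 ± 0.24 SE (limma adjusted p = 0.12). TBL26, of the trichome birefringence-like family of wall polysaccharide acetyltransferases, had 275, 172 and 208 and then 335, 408 and 485 in induced plants (log2 change 0.92 ± 0.18 SE, adjusted p = 0.00521). Without induction its means were 246 and 187, a difference of 1.33 ± 0.25 SE (adjusted p = 0.12). TBL26 had an induced mean of 509 at 6 h, so its late rise followed a lower level at 12 h. AT1G75280, an isoflavone reductase-like gene, rose from 952 ± 60.5 to 1311 ± 156 (adjusted p = 0.021), against 1066 and 874 without induction (adjusted p of the difference 0.189). Its late rise lost the call in 8 of 18 alternatives (adjusted p up to 0.261), among them leaving out induced 12 h replicate 1 or 3 or 24 h replicate 2 or 3. The unnamed 258054_at fell from 840.3, 969 and 1060 to 512, 331 and 400.1 in induced plants, while its means without induction were 1411 and 1365 (adjusted p of the difference 0.0854). With signals raised to background the difference passed for AT4G22212, TBL26 and 258054_at (adjusted p = 0.0241, 0.0241 and 0.0189).

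For other probe sets in this group induced plants held their level while plants without induction moved. AT3G28220, a TRAF-like gene, had induced signals of 1071, 1046 and 892 at 12 h and 951, 920 and 1030 at 24 h (adjusted p = 0.902). Without induction it fell from 975 to 557 (adjusted p = 0.000356). AT3G28270 had 266, 264 and 188 and then 209.7, 201 and 243 in induced plants (adjusted p = 0.764), and fell from 215 to 106 without induction (adjusted p = 0.000194). The difference had an adjusted p of 0.189 for both genes.

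To ask what had levelled off, early responders were chosen at 6 h, on arrays that the 12 h to 24 h comparison does not use. At 6 h limma called 220 probe sets (0.967%), 130 up and 90 down (89 and 133 with each array shifted to 1 median). At least 2-fold were 63 of the rises (0.277%) and 42 of the falls (0.185%). A probe set was described as held if the 95% interval of its change from 12 h to 24 h lay within 2-fold and it did not pass the test, and as unresolved if neither applied. Of the 63 raised at 6 h, 25 (39.7%) were held, 2 rose, 0 fell and 36 were unresolved. Of the 42 lowered, 20 (47.6%) were held, 2 rose, 3 fell and 17 were unresolved. Over all tested probe sets 59.9% were held and 3.43% changed. The median log2 change from 12 h to 24 h was 0.11 for those raised and 0.22 for those lowered, against -0.0046 over all probe sets. Without induction the same probe sets had medians of 0.05 and 0.38, so the lowered set moved up more in plants without induction than in induced ones. The median response to induction of the lowered set was -1.73 at 6 h, -1.82 at 12 h and -2.04 at 24 h. That of the raised set was 2.03, 1.77 and 1.71, where the 6 h arrays chose both sets. The class held describes the level in induced plants alone, not the gap from plants without induction. For example, 248252_at was raised at 6 h and held, but at 24 h its mean log2 signal was 7.06 with and 7.41 without induction. Some of the raised set had no excess left at 12 h, although its median response there was 1.77. Mean log2 signals at 12 h with and without induction were 2.74 and 3.32 for AT1G14090 and 3.08 and 3.48 for 264034_s_at. They were 4.64 and 4.68 for 247432_at. In the lowered set, 264953_at had 6.36 with and 5.91 without induction at 12 h. The step from 6 h to 12 h had medians of 0.46 and -0.16, but it uses the 6 h arrays that chose these probe sets and is a description, as is any early step given for them. A fit of the 6 h arrays alone called 67 at 6 h. With signals below background raised to it, 76 of the 105 early responders were held in place of 45. Fitted on the 6 arrays alone, 38 of the raised were held, 4 rose, 1 fell and 20 were unresolved, and 13 of the lowered were held, 1 rose, 0 fell and 28 were unresolved.

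MGH3, the sperm cell histone H3 gene, illustrates the unresolved ones. Its induced mean was 178 at 6 h, and its signals were 435, 438 and 407 at 12 h and 563, 447 and 643 at 24 h. Each 24 h array was above each 12 h array, and the log2 change was 0.35 ± 0.60 SE with a 95% interval of -0.89 to 1.60 (adjusted p = 0.868). Plants without induction were near background, where signals vary widely, and the fit shares 1 estimate of spread per probe set over all 18 arrays. Fitted on the 6 arrays alone, the interval was 0.08 to 0.62 (adjusted p = 0.175), and with signals raised to background it was -0.0049 to 0.71, both within 2-fold. TET11, a tetraspanin gene of sperm cells and a known target of DUO1, had a mean of 49.7 at 6 h and signals of 126, 153 and 145 at 12 h and 199, 176 and 204 at 24 h. These did not overlap, and the log2 change of 0.45 had an adjusted p of 0.884 over all arrays and of 0.044 over the 6.

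The late step of MGH3 was 0.35 against an early one of 1.28 on the log2 scale, and that of TET11 was 0.45 against 1.57. The direct test of the late against the early step is described below. Of the 63 probe sets raised at 6 h it called 0 with a more negative late step and 2 with a more positive one. Over all probe sets the shares were 0.497% and 0.572%. The smaller late steps given here are descriptions of means. AT4G20790, a leucine-rich repeat gene, had a mean of 11.5 at 6 h, 40.3, 52.1 and 34.7 at 12 h and 53.5, 68.4 and 65.8 at 24 h. Its late change was 0.57 (95% interval -1.11 to 2.26, or 0.18 to 0.97 on the 6 arrays). AT1G15190, a fasciclin-like arabinogalactan gene, had 20.8, 28.5 and 35.4 at 12 h and 29.9, 28.4 and 29.5 at 24 h. Those groups overlapped, and the log2 change was 0.09 (adjusted p = 0.967).

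The transporter gene NRT2.5, which encodes a high-affinity nitrate transporter, had signals of 57.8, 34.5 and 36.1 at 12 h and 34.4, 23.3 and 46.3 at 24 h, which overlapped (log2 change -0.32, adjusted p = 0.888). SBT4.13, a subtilisin-like protease gene, had 54.4, 70.9 and 50.9 and then 33.1, 28.4 and 41.9. Every 24 h array was lower, but the change of -0.77 did not pass (adjusted p = 0.714, and 0.0605 on the 6 arrays). CP1, a cysteine protease gene, had 54.5, 56.7 and 62.2 at 12 h and 104, 98.8 and 91.5 at 24 h, all higher at 24 h (log2 change 0.76, adjusted p = 0.0917, and 0.00563 on the 6 arrays). CYP78A9, a cytochrome P450 gene of reproductive growth, had 147, 122 and 130.4 and then 88.1, 69.95 and 87.9, all lower (log2 change -0.70, adjusted p = 0.146, and 0.0117 on the 6 arrays).

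Of the 63 raised probe sets, 1 above background on all 6 arrays still rose. That was 248011_at, with no gene named, at 28.5 at 6 h, 85.8, 102 and 83.9 at 12 h and 175, 169.7 and 198 at 24 h (log2 change 1.00 ± 0.24 SE, adjusted p = 0.0216). It lost its call without any 1 of the 6 arrays and with either covariate, 8 of 18 alternatives (adjusted p up to 0.121). Its difference from plants without induction, which had 7.05 and 8.51, had an unadjusted p of 0.0452 (adjusted p = 0.703). The other, AT2G04600, was at background on all 6 arrays (0.2 and 3.29), so its change was not measured. Others of the 10 largest named rises at 6 h were dim. AT1G73050, of the mandelonitrile lyase family, had signals of 17.4, 10.7 and 7.54 at 12 h and 3.06, 1.42 and 4.93 at 24 h, the last all at background (adjusted p = 0.103). AT3G54310 had 6.08, 7.21 and 6.81 and then 6.54, 9.82 and 10.1, which hardly rise above background, AT3G12000 was above it on 1 of 6 arrays and AT4G09410 on none.

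Several genes held at a raised level had nearly the same signals at both times, and those described next were picked from them. Others moved within 2-fold, such as AT1G24735 (log2 change -0.49, interval -0.96 to -0.015) and 252193_at (-0.43, interval -0.83 to -0.04). BGAL16, a beta-galactosidase gene, had signals of 61.2, 50.9 and 62.6 at 12 h and 52.7, 53.98 and 56.2 at 24 h, against means of 12.8 and 16.7 without induction. The 95% interval of its log2 change was -0.53 to 0.34. AT1G02810, a pectin methylesterase gene, had 49.3, 56.8 and 63.6 and 56.1, 55.4 and 55.3 (interval -0.37 to 0.34). Its mean log2 signals at 12 h and 24 h were 5.81 and 5.80 with induction and 4.67 and 5.25 without, so it was less raised at 24 h. AT5G50170, a gene with C2 and GRAM domains, had 104, 117 and 105 and 104, 97.6 and 118, against means of 20.8 and 18.5 without induction (interval -0.51 to 0.44). The probe set 252440_at, with no gene named, had 881, 873 and 806 at 12 h and 955, 759 and 856 at 24 h, with an interval of -0.99 to 0.99. Without induction its means were 6.39 and 1.47, so it was among the brightest held at a raised level. AT3G05920, a gene of the heavy metal-associated domain family, had 44.7, 45.1 and 48.7 and 43.1, 52.1 and 46.3 in induced plants. It rose without induction from 13.2 to 29.02 (adjusted p = 0.00563), so the gap between the plants narrowed (unadjusted p of the difference 0.00127, adjusted p = 0.441).

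**Figure D3:**
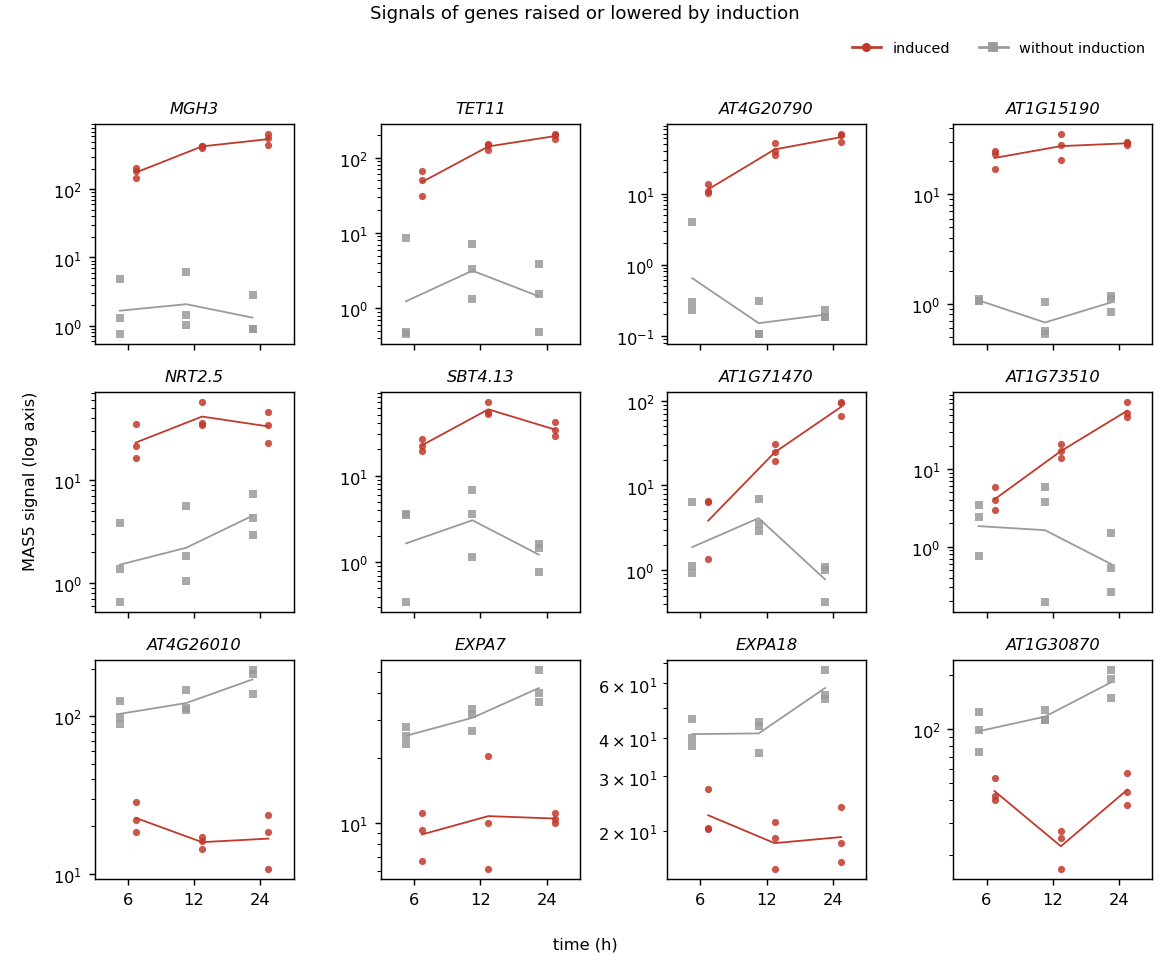
MAS5 signals on log axes at 6 h, 12 h and 24 h for 12 genes, of which EXPA18, AT1G71470 and AT1G73510 were not among the early responders. Points are single arrays (red circles induced, grey squares without induction) and lines join geometric means of 3 arrays. MGH3, TET11, AT4G20790 and AT1G15190 change less from 12 h to 24 h than from 6 h to 12 h in mean, AT1G71470 and AT1G73510 have a higher mean at each later time, and AT1G30870 rises after 12 h.

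A set of 16 genes had been named for their response to induction in earlier results on these arrays, so its counts are descriptions. AT1G71470 had an induced mean of 4.75 at 6 h and signals of 30.8, 19.4 and 24.8 at 12 h and 66.7, 97.1 and 93.04 at 24 h. Each 24 h array was at least 2-fold above each 12 h array, but over all arrays the change of 1.78 ± 0.70 SE did not pass (adjusted p = 0.212). It passed on the 6 arrays alone and with signals raised to background (adjusted p = 0.0014 and 0.000105). AT1G73510 had a mean of 4.24 at 6 h, 16.9, 21.2 and 13.8 at 12 h and 46.8, 52.2 and 73.3 at 24 h, with the same pattern (adjusted p = 0.432 over all arrays, 0.00317 on the 6 arrays and 0.000628 raised to background). Neither gene was among the early responders. The change of AT1G71470 was larger with induction than without by 4.19 ± 0.99 SE (adjusted p = 0.301), a difference that passed with signals raised to background (adjusted p = 0.0241).

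Others of this set differed less between the times. AT5G37450, a leucine-rich repeat kinase gene, had 78.1, 106 and 102 at 12 h and 110.3, 158 and 139.9 at 24 h (adjusted p = 0.781). AT4G21020, a late embryogenesis abundant protein gene, had 92.7, 95.4 and 86.2 and then 45.6, 41.8 and 87.9, of which 1 array stayed within the 12 h range (adjusted p = 0.788). The sugar transporter gene AT5G26250 had 43.2, 67.7 and 49.8 and 35.8, 35.05 and 43.1 (adjusted p = 0.879), with the lowest 12 h array just above the highest 24 h array. CML37, a calmodulin-like gene, had 15.9, 24.2 and 13.4 and 17.3, 15.2 and 20.2, which overlapped (adjusted p = 0.998). Means at 12 h and 24 h were 22.03 and 33.5 for AT3G60780, 15.03 and 25.8 for AT4G18180, 27.8 and 23.2 for AT2G37070, and 23.99 and 39.7 for AT3G51690, of which AT2G37070 alone had groups that overlapped. AT2G19970 had 9.99 and 7.75, with 1 array at 24 h at background. Of the 16 genes 1 changed (6.25%, against 3.43% of all probe sets). That was AT1G54890, whose induced mean fell from 9.11 to 1.48, at background on all 3 arrays at 24 h (adjusted p = 0.00536). It lost its call with signals raised to background and on the 6 arrays alone (adjusted p = 0.617 and 0.1).

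**Figure D4:**
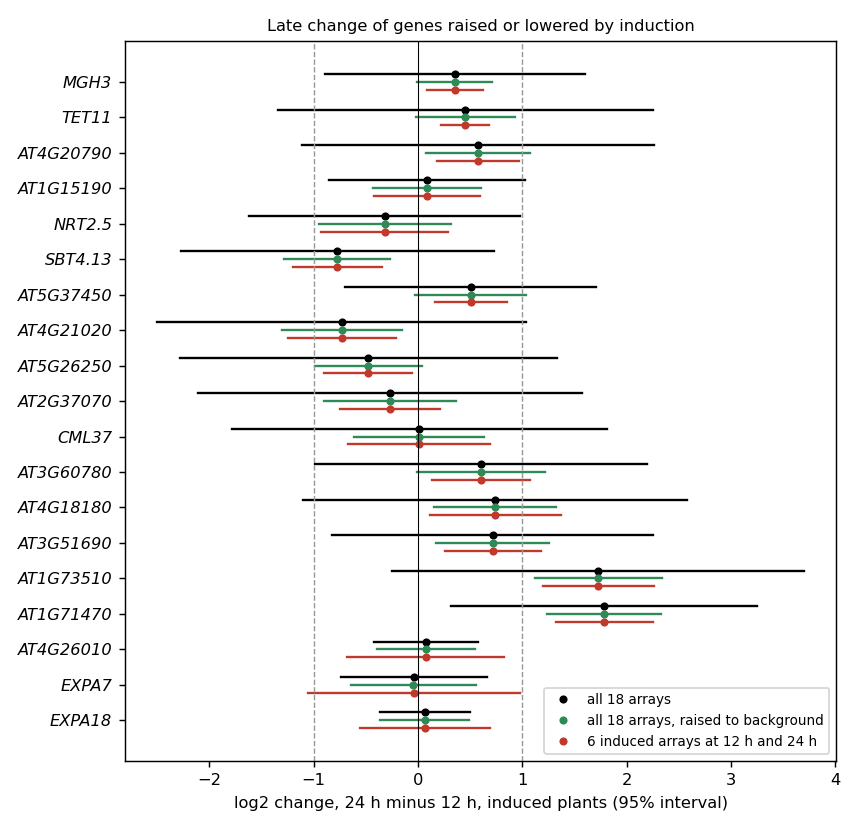
Log2 change from 12 h to 24 h in induced plants with its 95% interval for 19 genes raised or lowered by induction, from a fit over all 18 arrays (black), over all arrays with signals raised to background (green) and over the 6 arrays compared (red). Dashed lines mark 2-fold; the black intervals of MGH3 and TET11 reach past it and the red ones do not, while both fits give the same estimate.

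Several genes lowered at 6 h encode class III peroxidases, which oxidise wall phenolics; those described next were picked from that set, in which 47.6% were held against 59.9% of all probe sets. AT4G26010 had signals of 17.1, 16.2 and 14.4 at 12 h and 18.5, 23.7 and 10.6 at 24 h, against means of 123 and 174 without induction (interval -0.42 to 0.57). AT4G30170 had 41.6, 44.6 and 52.8 and 37.7, 85.8 and 43.4 (interval -0.30 to 0.64), with 1 array at 24 h high. AT2G18980 had 44.4, 47.5 and 41.7 and 56.2, 61.98 and 52.7, all slightly higher at 24 h (interval 0.09 to 0.61), and AT4G11290 was also held (20.1 and 25.2). AT1G34510 was at background on all 6 arrays and was not followed. AT1G30870 rose. Its induced mean was 45.4 at 6 h, and its signals were 24.7, 16.5 and 26.9 at 12 h and 44.6, 57.1 and 37.7 at 24 h (log2 change 1.04 ± 0.21 SE, adjusted p = 0.00563, or 0.0671 with the actin ratio as a covariate). Plants without induction had 117 and 184 (adjusted p = 0.172), and the difference between the changes did not pass (adjusted p = 0.854).

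Another expansin gene lowered at 6 h, EXPA9, was held (interval -0.26 to 0.34). The root hair expansin genes EXPA7 and EXPA18, whose products loosen walls, were held. EXPA7 was lowered at 6 h, whereas EXPA18 was not among the early responders. EXPA7 had signals of 10.04, 6.11 and 20.5 at 12 h and 10.4, 11.1 and 10.02 at 24 h, with 1 array at 12 h at background, and EXPA18 had 21.4, 15 and 18.96 and 15.9, 23.9 and 18.3. Both groups overlapped for each gene, and the intervals were -0.74 to 0.67 and -0.37 to 0.50. AT3G13610, the feruloyl-CoA hydroxylase gene F6'H1 of coumarin synthesis, had an induced mean of 196 at 6 h and signals of 55.5, 52.6 and 76.2 at 12 h and 49.98, 51.7 and 54.8 at 24 h. Its mean was thus lower at 12 h than at 6 h and nearly the same at 24 h (interval -0.54 to 0.11). AT3G54040 had 39.6, 39.03 and 53.6 and then 29.5, 27.6 and 38.2, all lower at 24 h but within 2-fold (interval -0.81 to -0.13, adjusted p = 0.137). Of the 4 other probe sets lowered at 6 h that changed, 264567_s_at rose from 18.8 ± 0.238 to 33.9 ± 5.99 (adjusted p = 0.00287). Falls were called for 266884_at, from 132 ± 26.6 to 83.7 ± 13.6, and 266336_at, from 20.6 ± 1.14 to 8.38 ± 3.35 (adjusted p = 0.00982 and 0.00106), and 266765_at was at background on all 6 arrays. In the fit of the 6 arrays alone 264567_s_at, 266884_at and 266336_at did not pass (adjusted p = 0.0727, 0.0654 and 0.0755). The call of 266884_at was lost in 6 of 18 alternatives (adjusted p up to 0.11), among them leaving out induced 12 h replicate 1 or 3 or 24 h replicate 3.

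Most of the largest falls at 6 h among named genes were too dim to follow. AT1G34510, AT1G24390 and AT5G22555 were all at background at 12 h and 24 h. AT4G25250, of the pectin methylesterase inhibitor family, had signals of 3.33, 1.29 and 6.14 at 12 h and 9.86, 5.78 and 6.44 at 24 h, which overlapped, against means of 17.8 and 35.2 without induction. AT1G33770, a protein kinase gene, had 6.84, 4.39 and 11.9 and 7.44, 5.59 and 8.26, with 1 array of each time at background (adjusted p = 0.995). Its mean log2 signals were 2.83 with and 2.35 without induction at 12 h, and 2.81 and 0.87 at 24 h. Its mean was thus no longer lower with induction at these times.

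A direct test of the late step, 12 h to 24 h, against the early one, 6 h to 12 h, called 243 probe sets in induced plants (1.07%), 130 with a more positive (0.572%) and 113 with a more negative (0.497%) late step. The 12 h arrays enter both steps with opposite sign, so a low or high 12 h level weighs in both. The named genes with a more negative late step were bright. AT3G23080, whose product has a START lipid-binding domain, had an induced mean of 163 at 6 h and signals of 238, 292 and 232 at 12 h and 86.9, 104 and 88.6 at 24 h (difference -2.08 ± 0.32 SE, adjusted p = 0.00248). In induced plants it thus stood highest at 12 h and lowest at 24 h. The steps were not compared in plants without induction, for this gene or the next. AT5G16030 had 276 at 6 h, 329.9, 469 and 411 at 12 h and 134, 182 and 137 at 24 h (difference -1.97 ± 0.30 SE, adjusted p = 0.00248). For AT5G48490, AT1G66100 and AT1G13650, described above, the differences were -3.09 ± 0.41 SE, -2.45 ± 0.33 SE and -2.73 ± 0.32 SE (adjusted p = 0.0013, 0.0013 and 0.000588). Of the genes with a more positive late step, the 5 largest, AT2G04600, AT4G09410, AT3G61930, AT2G33720 and AT4G01740, were at background on all 3 arrays at 12 h and had 24 h means of 3.29, 2.85, 5.14, 8.57 and 7.38. The count was 54 and 94 without induced 12 h replicates 2 and 3, 150 without induced 24 h replicate 3, and 6 with the actin ratio as a covariate.

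The 26 gene lists covered tissues, stress, hormones and the cell cycle, and included the set of 16 genes named from earlier results on these arrays. Of the lists, 23 had a measured member, 88 in all, of which 0 rose and 2 fell (2.27%, against 3.43% over all probe sets). The 2 were AT1G54890, which belongs to that set of 16, and LHCB4.2, which encodes a minor antenna protein of photosystem II. LHCB4.2 had signals of 3726, 4254 and 3800 at 12 h and 1981, 2836 and 2144 at 24 h (log2 change -0.77 ± 0.15 SE, adjusted p = 0.00606). It fell by like amounts without induction, from 3474 to 2023 (adjusted p = 0.0106). Its close relative LHCB4.1 had means of 4700 and 4198 in induced plants and was held, as were the other 2 measured photosynthesis genes, RCA and PRK.

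The 4 measured of 28 listed genes of the G2 to M phase were all held, the Aurora kinase genes AUR1, AUR2 and AUR3 and the spindle checkpoint gene BUBR1. They were above background on all 6 arrays, and of all such probe sets 84.9% were held. The same share applies to the other lists whose measured genes were all above background, the core histones among them. AUR2, for example, had signals of 102, 111 and 87.1 at 12 h and 125, 101 and 112 at 24 h, which overlapped. The 3 core histone genes were held with small positive changes, 0.14 to 0.40 on the log2 scale (median 0.25, against -0.0046 over all probe sets). Without induction their median change was 0.21. The median of the G2 to M genes was 0.17 with and 0.26 without induction. Of 5 pollen vegetative cell and tube genes, ACT11, an actin gene of reproductive tissue, was held, with 128, 166 and 137 at 12 h and 166, 166 and 209 at 24 h. The other 4, AtVEX1, ANX1, ANX2 and ACT12, had mean signals of at most 8.35 and were mostly at background. ACT11 had means of 101 and 81.7 without induction, and the difference between the changes had an unadjusted p of 0.00133 (adjusted p = 0.441). Of the sperm cell list, TET12 was at background on 5 of 6 arrays, and OCT1, a carnitine transporter gene, had 14.2, 26.8 and 11.7 and 7.098, 15.8 and 11.6, which overlapped.

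Among 5 cold, abscisic acid and drought genes 0 passed, against 3.43% of all probe sets. Their median log2 change was -0.37 with and -0.51 without induction. COR15A, a chloroplast-targeted protein gene of freezing tolerance, had signals of 3705, 1244 and 1584 at 12 h and 2183, 2142 and 1714 at 24 h, so its 12 h arrays spread over the whole 24 h range (interval -0.62 to 0.71). COR15B and COR47 were also held. LTI30, a dehydrin gene, had 655, 627 and 591 and then 324, 476 and 343, all lower at 24 h (log2 change -0.73, adjusted p = 0.0663, and past the test in 6 of 18 alternatives). The jasmonate-responsive defensin gene PDF1.2 had 78.2, 121 and 83.7 at 12 h and 49.8, 32.5 and 29.4 at 24 h, also with no overlap (log2 change -1.35, adjusted p = 0.0557, past the test in 6 of 18). Its means without induction were 98.01 and 84.1. The lipid transfer protein genes AT4G33550, AT2G37870 and AT3G53980 were all held, with means of 250, 265 and 566 at 12 h and 241, 232 and 639 at 24 h.

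Of 10 autophagy genes, whose products build the autophagosome, 7 were held and 0 passed. All 10 were above background on the 6 arrays. Of all such probe sets 84.9% were held, and 3.43% of all tested probe sets passed. ATG8B had signals of 42.7, 43.4 and 42.8 at 12 h and 55.7, 83.1 and 67.98 at 24 h, and its relative ATG8F had 494, 569 and 512 and then 352, 394 and 289. Both pairs of groups were apart, in opposite directions (log2 changes 0.66 and -0.61, adjusted p = 0.0615 and 0.0778). Both glutathione transferase genes measured were held, GSTU25 at 153 and 144 and GSTU22 at 66.6 and 52.6, as were the glycosyltransferase gene UGT73B5, the cytokinin response regulator gene RR16 and the clock gene GI. The iron-responsive bHLH101 gene had 1.2, 9.91 and 15.4 at 12 h and 18.5, 24.8 and 35.5 at 24 h, with 1 array at background at 12 h (adjusted p = 0.218), and means of 5.06 and 25.3 without induction. The 4 stable reference genes were held, with log2 changes of -0.11 to 0.13.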

How the data were processed

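Transcripts were measured on ATH1 arrays in biotin-labelled RNA of whole seedlings. The deposited intensity of a probe set is a linear MAS5 signal, for which the submitters' processing notes name MAS5 and GCOS. Software versions and the scaling target were not stated in those sources. The mean of each array without the lowest and highest 2% was 100 in the values.

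Log2 signals of the 22746 probe sets left after 64 controls, with no filter, were fitted in limma 3.58.1 (R 4.3.3) with 1 mean per group over all 18 arrays and an intensity trend (12 residual and 7.69 prior degrees of freedom). Each contrast had its own Benjamini-Hochberg adjustment, with a threshold of 0.05. Against a group at background on all 3 arrays, a fold is a lower bound, from the mean log2 of background levels, a definition made with the data seen. The number of arrays limits the precision. Whether replicates came from separate cultures is not in the labels. P-values thus reflect the spread between these samples, which may be technical. Array measures used Python 3.11.15 with numpy 2.4.6 and pandas 2.3.3, and figures matplotlib 3.10.9. The fits were tested on simulated data with 1 mean and 1 spread per probe set over all groups, apart from the changes put in. A wider spread in groups at background was not part of that test.

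Of the tested probe sets 13513 (59.4%) had 1 gene, 503 several and 8730 none in the annotation provided. DUO1 itself was not analysed here. Members of all lists, and the tests, were chosen with earlier results of these data known. Genes were named by rule: the 12 largest rises and falls with 1 gene, at least 2-fold, separated groups and the brighter group above background (of 26 and 50); the 10 largest rises and 6 largest falls at 6 h; the 5 largest each way between steps; 5 in the difference from plants without induction, where 0 passed; up to 4 per list; and all sperm cell and induced genes of the lists. Further early responders, unnamed probe sets and those nearest to passing in the difference were chosen by their values. The 26 lists had 407 entries, and 88 matched a probe set with a single gene. Lists of endodermis, salicylic acid and phosphate genes had 0 measured.

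Alternatives were quantile normalization, 1 median, a filter (40th percentile of mean signal), an offset before the log (10th percentile), signals raised to background, no trend, array weights, a replicate block, leaving out probe sets of several genes, a fit of only the arrays compared, and dropping each array in turn. The actin ratio and the hybridisation controls as covariates, and the classes of early responders under all of these, were added after the data were seen.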

Additional observations from a re-analysis of the deposited data

How the results depend on the processing

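Of 4140 comparisons of a named probe set's late change with an alternative, 3917 kept their direction and side of the threshold, 172 lost and 50 gained a call, and 1 reversed: 266765_at, at background on all 6 arrays, had a log2 change of 0.21 with signals raised to background (adjusted p = 0.804). Of the 56 named probe sets past the test, 33 lost their call in some alternative. The count of late changes in induced plants was 433 without the intensity trend, 1204 with array weights, 353 with the actin ratio as a covariate, and 387 to 850 when 1 array was left out. Without induction it was 126, 793 and, leaving out 1 array, 155 to 302, where the first is without trend and the second with array weights. The difference between them was called for 2 (filter), 8 (raised to background) and 12 (array weights) probe sets, and 0 to 18 when 1 array was left out. The 6 h response had 67 calls on the 6 h arrays alone, 133 with the hybridisation controls as a covariate and 98 to 262 without 1 array. The late against the early step had 63 without trend, 454 with array weights, 6 with the actin ratio, 158 with the hybridisation controls and 54 to 309 without 1 array. Held early responders numbered 76 with signals raised to background and 37 to 41 without 1 array. The causes were not tested. Replicate numbers did not pair arrays: deviations of same-numbered induced arrays at 12 h and 24 h correlated at 0.017, -0.003 and -0.008. With the replicate number as a block the counts were 703, 283, 0, 178 and 205 for the late change with and without induction, their difference, the 6 h response and the difference between steps. Signals under background, 4.81 to 7.05 on the 6 arrays, limit the precision of dim probe sets.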

Other observations

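Responders chosen at 12 h instead of 6 h use the 12 h induced arrays, so they are described without a test. Of 235 probe sets raised at least 2-fold at 12 h, 3 rose and 4 fell by 24 h (1.28% and 1.7%, against 1.49% and 1.94% of all probe sets), 103 were held and 125 were unresolved, with a median log2 change of -0.03. Of 185 lowered at 12 h, 17 rose and 6 fell (9.19% and 3.24%), 89 were held and 73 were unresolved, with a median of 0.17. Of the 63 raised at 6 h, 53 had all 6 induced arrays above background, of which 25 were held. Of the 42 lowered, 24 had, of which 17 were held, and 84.9% of the 15985 such probe sets in all were held.

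Transcripts of heat shock proteins were measured for 2 genes. AT5G51440, a small heat shock protein gene, had an induced mean of 60.4 at 6 h and signals of 24.7, 19.7 and 21.7 at 12 h and 30.96, 46.1 and 27.5 at 24 h (log2 change 0.63, limma adjusted p = 0.305), with no overlap between the times. ATHSP22.0 had 20.3, 4.58 and 5.67 and 11.3, 8.94 and 10.3, which overlapped. Of 6 auxin response genes 3 were held and 0 passed, against 59.9% and 3.43% of all probe sets. IAA29, an Aux/IAA repressor gene, had 11.8, 11.6 and 11 at 12 h and 6.13, 6.74 and 3.07 at 24 h (limma adjusted p = 0.343), with 1 of the 24 h arrays above background and a mean of 2.86 at 6 h. Both stomatal lineage genes measured, SPCH and FMA, which set up stomatal precursors and complete guard cell formation, were held, at means of 38.1 and 66.4 at 12 h and 41.4 and 60.6 at 24 h.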
